A study of Mus musculus with 18 samples.

Results

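Immediate early response genes were measured in mouse small intestinal crypt cells that had been sorted by the brightness of a reporter for Flattop, which acts in planar cell polarity. The 10 genes are Fos, Fosb, Jun, Junb, Atf3, Egr1, Egr2, Btg2, Ier2 and Ier3, out of 19938 genes with a symbol of their own on the array. They were taken by symbol from the platform annotation, and each has 1 probe set there. All 10 lay above the background level of 4.23 (log2) on all 6 arrays, where background is the 95th percentile of olfactory, vomeronasal and trace amine receptor genes.

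The gates analysed were reporter-high, reporter-low and reporter-negative, with 2 arrays each. All 3 came from crypts of FltpZV/+ mice, C57Bl6/J, 4 months old, so the cells of every gate carried 1 reporter allele, and each array held RNA pooled from 2 animals. The labels do not say whether gates of a replicate number shared animals, so p-values measure only the spread between these arrays, which may be technical. The other 12 samples of the series, from a lineage-tracing line, are not analysed here. Every gate went through dissociation to single cells and sorting by green fluorescence, and no undissociated or unsorted sample was used here, so the values compare gates with each other and not handled with unhandled cells. In such sorted bulk RNA, fewer cells of a type and less RNA per cell cannot be told apart.

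The values are log2 RMA values (robust multi-array average), and array medians lay between 4.54 and 4.74. Reporter-high replicate 2 stood apart from its partner: the Pearson correlation across genes of the high pair was 0.946, against 0.975 for the low pair and 0.981 for the negative pair, and 69.4% of genes lay above background on it, the highest share of the 6 arrays. Of 9 epithelial markers, 9 lay above background on every array, and 0 of 9 were called in any comparison. At an unadjusted limma p under 0.05, 5 were lower in high than in negative cells (12.9% of all genes). In low against negative cells 4 were lower (9.31%), and 1 was higher in high than in low cells (10.5%). Arrays did not overlap for 7 of the 9, lower in high than in negative cells (22.4% of all genes). The same held for 7 in low against negative cells (28.5%). Their median change against negative cells was -0.85 in high and -0.60 in low cells (log2), against 0.10 and -0.03 over all genes. A gene was called at a limma p under 0.05 after Benjamini-Hochberg adjustment across the 19938 genes.

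Immediate early genes are transcribed within minutes of a growth factor, stress or depolarising signal, and need no new protein for it. Signals through the MAP kinases reach serum response factor and its ternary complex partners, and cAMP or calcium signals reach CREB, at short elements close to the start sites. Many of the products are themselves transcription factors: FOS and JUN proteins pair into AP-1, ATF3 is a stress-induced relative that pairs with JUN proteins, and EGR proteins are zinc finger factors of growth and differentiation. Their transcripts are short-lived, and in solid tissues they are known to respond to enzymatic dissociation and to cell sorting.

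Promoter windows of RefSeq (GRCm38.p6), from 250 bases before to 50 bases after the start, were found for 8 of the 10 genes, all but Egr1 and Ier2. The letters TGACG, the core of the cAMP response element that CREB and ATF proteins bind, stood on either strand in windows of 6 of these 8 genes. Of all 32851 windows, which belong to 27025 genes, 20.8% hold them. A gene is counted here and below if any of its windows has a match, while the shares are of windows, so the 2 are not alike. Egr2 has 5 windows, and 3 of them, which overlap, hold TGACG at the same genomic places. Stretches of these 6 promoters are shown because they hold these letters, which do not by themselves show a working element. Capitals mark the core TGACG, or its reverse complement CGTCA, and in Egr2 also the CArG box, the serum response factor element.
Egr2, chr10:67537797-67537820, plus strand: CCATATATGGgcagcgaCGTCAcg
Fos, chr12:85473809-85473868, plus strand: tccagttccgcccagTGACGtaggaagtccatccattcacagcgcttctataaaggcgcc
Fosb, chr7:19310061-19310120, minus strand: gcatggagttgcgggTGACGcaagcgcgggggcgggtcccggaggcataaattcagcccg
Junb, chr8:84978810-84978869, minus strand: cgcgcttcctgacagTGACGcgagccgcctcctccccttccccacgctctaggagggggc
Atf3, chr1:191183334-191183393, minus strand: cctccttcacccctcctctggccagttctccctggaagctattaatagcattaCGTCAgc
Btg2, chr1:134079274-134079333, minus strand: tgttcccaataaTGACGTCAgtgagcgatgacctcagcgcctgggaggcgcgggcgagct

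In Btg2 the core and its reverse complement overlap into the full element TGACGTCA, which 1.79% of all windows hold and no other of the 8 genes does. The CArG box stood in 4 of the 5 windows of Egr2. Windows there overlap and some hold the same box, so these are not 4 separate sites. Of all windows 1.63% hold the box, and it was not found in windows of the other genes searched. The EGR element GCGNGGGCG was found in Fosb and Btg2, against 5.55% of all windows. TATAAA was found in Fos and Junb, against 13.6%. The AP-1 element TGANTCA was found in 0 of the 8 genes, against 7.81% of all windows. These matches describe the letters in the windows only.

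The reporter-negative gate held the lowest array for 7 of the 10 genes, the reporter-high gate for 2 and the reporter-low gate for 1. The highest array lay in the reporter-low gate for 7 genes, 6 of them on reporter-low replicate 2, in the high gate for 2 and in the negative gate for 1. These counts were made for the 10 genes only, so they do not show how common such an order is over all genes. Levels of different genes come from different probe sets and are not set against each other here.

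**Figure D1:**
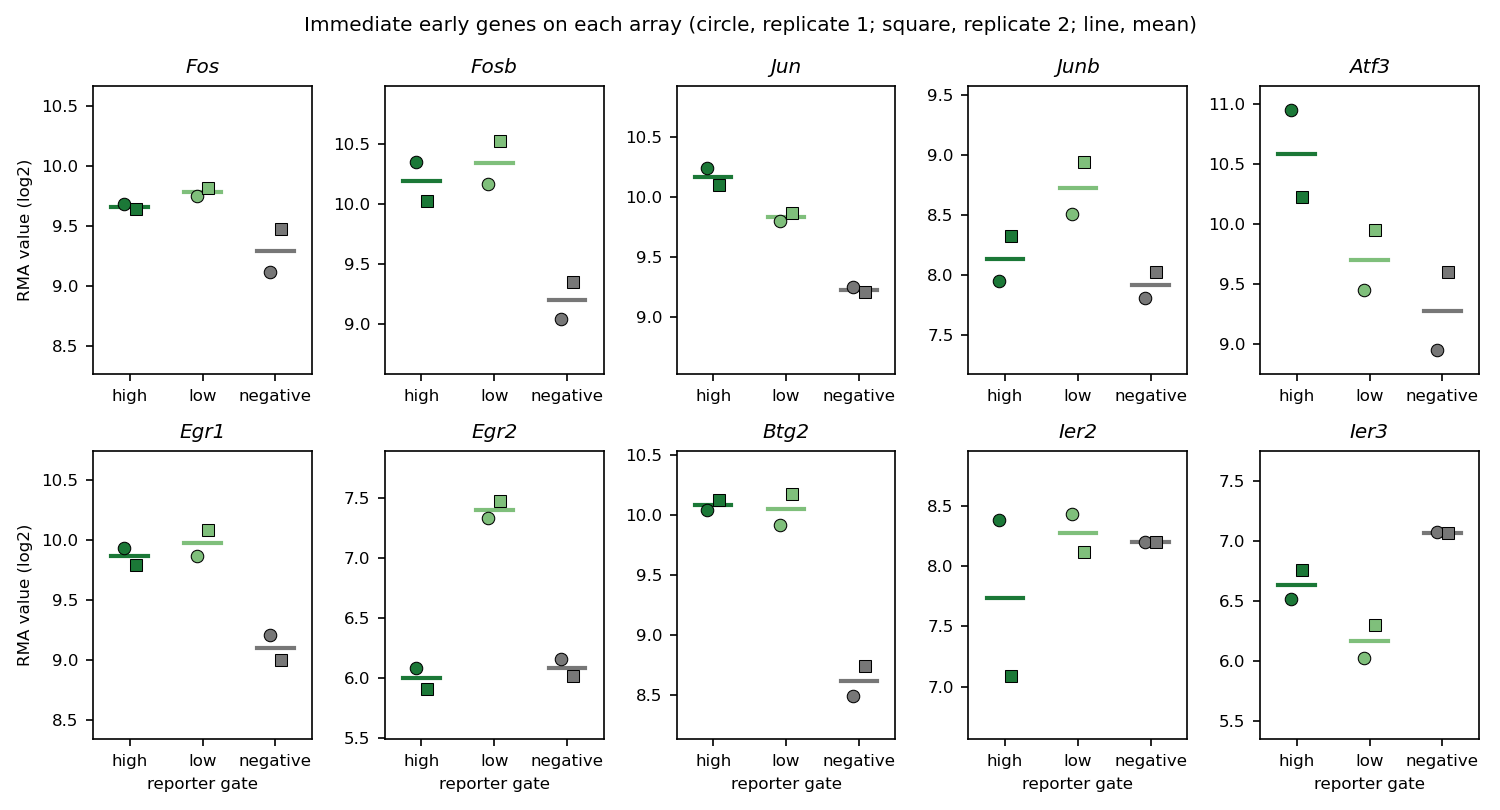
RMA values (log2, vertical axes) of the 10 genes in the reporter-high, reporter-low and reporter-negative gates, with a circle for replicate 1, a square for replicate 2 and a line for the mean of the 2 arrays. Btg2 lay at 8.49 and 8.74 in the negative gate and between 9.92 and 10.18 on the other 4 arrays, and Egr2 was highest in the low gate. Each panel has its own range of values, with the same span.

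In reporter-low against reporter-negative cells, 4 of the 10 genes rose (Btg2, Egr2, Fosb and Egr1), 1 fell (Ier3) and 5 were not called. Over all genes 3.42% rose and 2.54% fell. At an unadjusted limma p under 0.05, 7 of the 10 were higher and 1 lower, against 9.16% and 9.31% of all genes. The median change was 0.71 over the 10 genes and -0.03 over all genes (log2). Arrays of the gates did not overlap for 7 of the genes, which were higher in low cells, and for 1, lower in low cells, while 23.0% of all genes lay higher and 28.5% lower in this way.

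In reporter-high against reporter-negative cells, 2 of the 10 genes rose (Btg2 and Jun), 0 fell and 8 were not called. Over all genes 1.36% rose and 3.35% fell. At an unadjusted limma p under 0.05, 5 of the 10 were higher and 0 lower, against 9.28% and 12.9% of all genes. The median change was 0.56 over the 10 genes and 0.10 over all genes (log2). With quantile normalization 5 of the 10 rose and the medians were 0.917 and 0.02. Without overlap of the arrays 6 of the genes lay higher and 1 lower in high cells, against 32.9% and 22.4% of all genes. This comparison uses the same negative arrays as the previous comparison, so the values of both are given side by side for each gene and no relation between them is drawn.

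In reporter-high against reporter-low cells, 0 of the 10 genes rose and 1 fell (Egr2). Over all genes 1.01% rose and 3.89% fell, so the count of members rests on a single gene. At an unadjusted limma p under 0.05, 2 of the 10 were higher and 2 lower, against 10.5% and 12.0% of all genes. The median change was -0.12 over the 10 genes and 0.13 over all genes (log2), and with quantile normalization the sign of the first turned, to 0.11 against 0.06. Without overlap 3 genes lay higher (Jun, Atf3 and Ier3) and 3 lower (Egr2, Fos and Junb) in high cells, against 35.3% and 20.4% of all genes.

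**Figure D2:**
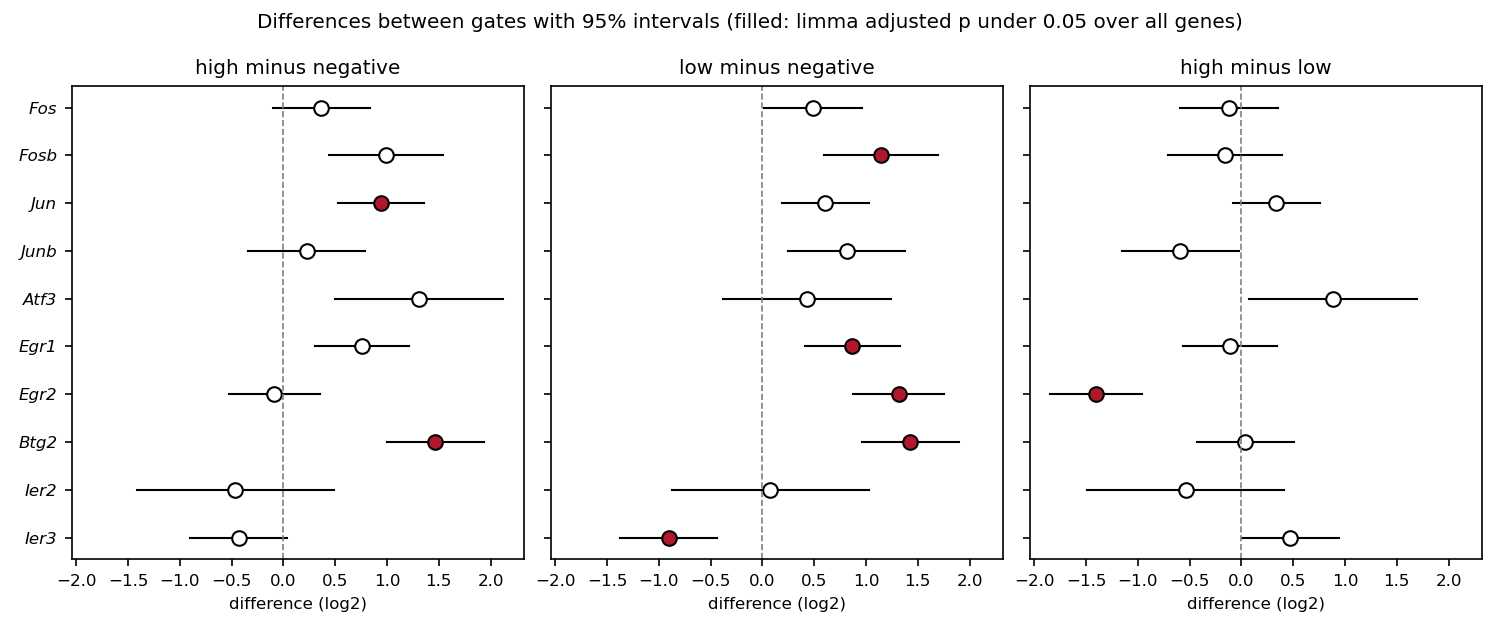
Differences between gates (log2, horizontal axis) of the 10 genes with limma's 95% intervals, for high minus negative, low minus negative and high minus low. Filled points passed an adjusted p under 0.05 over all genes: 2 genes in the left panel, 5 in the middle panel and 1 in the right panel.

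Fos and Fosb encode partners of JUN proteins in AP-1. Fosb (probe set 10560481) had 10.35 and 10.02 in high cells, 10.16 and 10.52 in low cells and 9.04 and 9.35 in negative cells. All 4 arrays of the reporter-positive gates lay above both negative arrays, and the high and low arrays overlapped. Fosb rose in low against negative cells, by 1.15 ± 0.23 (log2 change ± SE), a 2.22-fold difference (limma adjusted p = 0.0365). The difference of high from negative cells was 0.99 ± 0.23 and was not called (limma adjusted p = 0.0645), and that of high from low cells was -0.16, with an interval of -0.71 to 0.39. The Fosb call in low cells was lost without low replicate 1 (adjusted p = 0.0846), low replicate 2 (0.196), negative replicate 1 (0.235) or negative replicate 2 (0.130), and with arrays centred on their medians (0.0509). With quantile normalization Fosb was called in high against negative cells, at 1.38 (limma adjusted p = 0.0326).

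Fos (probe set 10397346) had 9.68 and 9.65 in high cells, 9.75 and 9.82 in low cells and 9.12 and 9.48 in negative cells. Its arrays did not overlap between any 2 gates, with the low gate highest and the negative gate lowest. The difference from negative cells was 0.37 ± 0.20 in high cells and 0.49 ± 0.20 in low cells, and neither was called (limma adjusted p = 0.322 and 0.250). That of high from low cells was -0.12, with an interval of -0.59 to 0.35, and it was 0.09 with quantile normalization. The negative pair itself differed by more than the high and low pairs did.

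Jun and Junb encode the other side of the AP-1 dimer, where JUN is the stronger activator and JUNB is known to restrain it. Jun (probe set 10514466) had 10.24 and 10.10 in high cells, 9.81 and 9.87 in low cells and 9.25 and 9.21 in negative cells. The 3 gates did not overlap, and the order was high, then low, then negative. Jun rose in high against negative cells by 0.94 ± 0.18, a 1.92-fold difference (limma adjusted p = 0.0359). The change of 0.61 ± 0.18 in low against negative cells was not called (limma adjusted p = 0.111), nor was that of 0.34 in high against low cells, with an interval of -0.08 to 0.76. The Jun call in high cells was lost without high replicate 2 (adjusted p = 0.0518) or either negative array (0.202 without replicate 1 and 0.209 without replicate 2), with array weights (0.0538), with a trended and robust prior (0.0573), and in a fit of the high and negative arrays alone (0.0739).

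Junb (probe set 10580282) had 7.95 and 8.32 in high cells, 8.51 and 8.94 in low cells and 7.81 and 8.02 in negative cells. Both low arrays lay above the other 4, and the high and negative arrays overlapped. The difference of low from negative cells was 0.81 ± 0.24 (limma adjusted p = 0.111), that of high from negative cells 0.22 with an interval of -0.34 to 0.79, and that of high from low cells -0.59 (adjusted p = 0.207). None of these was called, while array weights called both Junb (limma adjusted p = 0.0472) and Jun (0.0457) in low against negative cells.

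Atf3 encodes a stress-induced factor that ATF4 and the JNK pathway switch on. Its probe set (10361091) gave 10.95 and 10.23 in high cells, 9.45 and 9.95 in low cells and 8.95 and 9.60 in negative cells. Both high arrays lay above the other 4, and the low and negative arrays overlapped. The pairs were wide in every gate, and the SE of 0.34 was above that of each of the other genes except Ier2. The difference from negative cells was 1.31 in high cells, 2.48-fold (limma adjusted p = 0.0851), and 0.43 in low cells (adjusted p = 0.651), and that of high from low cells was 0.89 (adjusted p = 0.193). None was called, while quantile normalization gave a call in high against negative cells, at 1.69 (limma adjusted p = 0.0435).

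Egr1 and Egr2 encode zinc finger factors of the same family. Egr1 (probe set 10454782) had 9.93 and 9.79 in high cells, 9.86 and 10.08 in low cells and 9.20 and 9.004 in negative cells. Both negative arrays lay below the other 4, among which the gates overlapped. Egr1 rose in low against negative cells by 0.87 ± 0.19, 1.82-fold, close to the threshold (limma adjusted p = 0.0496). In high against negative cells the difference of 0.76 ± 0.19 was not called (limma adjusted p = 0.0797), and it was called at 1.12 with quantile normalization (adjusted p = 0.0340). The call in low cells was lost without any 1 of the low and negative arrays, with adjusted p of 0.133 without low replicate 1, 0.250 without low replicate 2, 0.187 without negative replicate 1 and 0.284 without negative replicate 2. It was also lost with a trended and robust prior (0.0792), among genes above background alone (0.0562) and with arrays centred on their medians (0.0699).

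Egr2 (probe set 10363735) had another pattern, with 6.09 and 5.91 in high cells, 7.33 and 7.47 in low cells and 6.16 and 6.01 in negative cells. Both low arrays lay more than 1 log2 unit above the other 4, and the high and negative arrays overlapped. Egr2 rose in low against negative cells by 1.32 ± 0.19, 2.49-fold (limma adjusted p = 0.0115). It fell by 1.40 ± 0.19 on the log2 scale in high against low cells (limma adjusted p = 0.00956). The difference of high from negative cells was -0.09, with an interval of -0.53 to 0.35, and it was 0.13 with quantile normalization. The call against negative cells was lost without low replicate 1 (adjusted p = 0.0533), low replicate 2 (0.0833), negative replicate 1 (0.0919) or negative replicate 2 (0.104). The call between high and low cells was lost without low replicate 1 (0.0550) or low replicate 2 (0.0714).

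Btg2 encodes an antiproliferative protein that recruits the CCR4-NOT deadenylase to mRNA and is a target of p53 as well as an immediate early gene. Its probe set (10357875) gave 10.04 and 10.12 in high cells, 9.92 and 10.18 in low cells and 8.49 and 8.74 in negative cells. Both negative arrays lay more than 1 log2 unit below the other 4, and the high and low arrays overlapped. Btg2 rose in high against negative cells by 1.47 ± 0.20, 2.76-fold (limma adjusted p = 0.0172), and in low against negative cells by 1.43 ± 0.20, 2.69-fold (adjusted p = 0.0107). The difference of high from low cells was 0.04, with an interval of -0.43 to 0.51. Leaving out negative replicate 1 ended the Btg2 call in high cells (adjusted p = 0.137), as did leaving out negative replicate 2 (0.129). The call in low cells was lost without either of these (0.105 and 0.0691) and without low replicate 2 (0.0777), and was kept without low replicate 1 (0.0420).

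Ier2 and Ier3 share a naming class and not a protein family. IER2 is a nuclear protein, and IER3 is a stress-induced regulator of cell survival that NF-kB and p53 are known to induce. Ier2 (probe set 10580183) had 8.39 and 7.09 in high cells, 8.43 and 8.12 in low cells and 8.21 and 8.20 in negative cells. The value of 7.09 on high replicate 2, the array that stood apart from its partner, lay below the other 5, and the gates overlapped in all 3 comparisons. The difference from negative cells was -0.46 ± 0.40 in high cells and 0.08 ± 0.40 in low cells, and neither was called (limma adjusted p = 0.514 and 0.968). Without high replicate 1, Ier2 was called lower in high than in negative cells, at -1.11 (limma adjusted p = 0.0381), and than in low cells, at -1.19 (0.0344). Without high replicate 2 the same differences were 0.19 and 0.11.

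Ier3 (probe set 10444890) ran against the other genes, with 6.52 and 6.76 in high cells, 6.03 and 6.30 in low cells and 7.07 and 7.07 in negative cells. The 3 gates did not overlap, with the negative gate highest and the low gate lowest. Ier3 fell by 0.90 ± 0.20 on the log2 scale in low against negative cells (limma adjusted p = 0.0469). The difference of high from negative cells was -0.43 (adjusted p = 0.254) and that of high from low cells 0.47 (adjusted p = 0.219), and neither was called. The Ier3 call was lost without low replicate 1 (adjusted p = 0.228), low replicate 2 (0.126), negative replicate 1 (0.240) or negative replicate 2 (0.231). It was also lost with a trended and robust prior (0.101), among genes above background alone (0.0519) and with quantile normalization (0.0775).

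**Figure D3:**
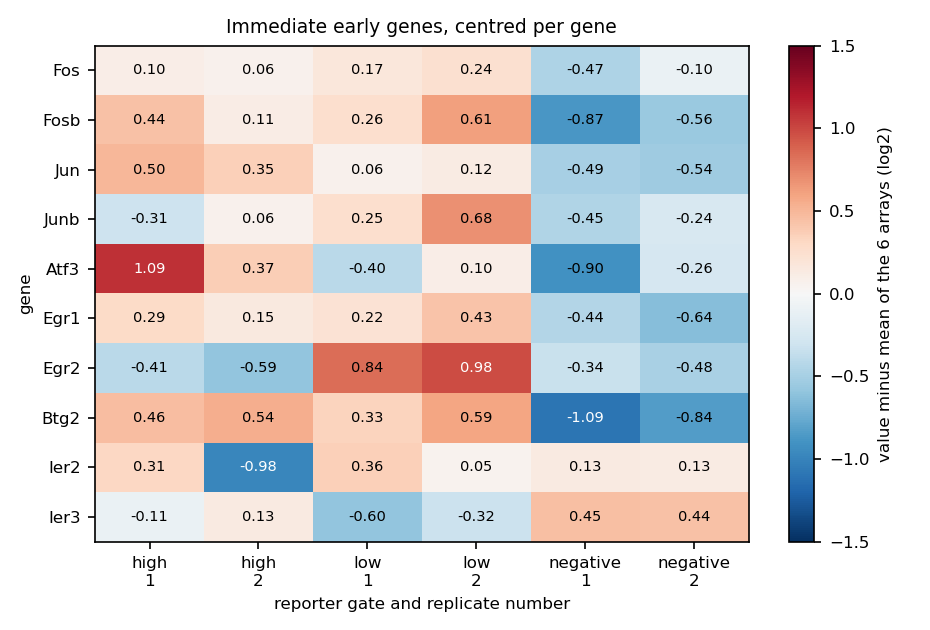
Value of each of the 10 genes on each array minus the mean of the gene over the 6 arrays (log2), with colour from blue (below the mean) to red (above it) and the number printed in each cell. In the negative gate 8 genes lie below 0 on both arrays, while Ier3 lies at 0.45 and 0.44 there and Ier2 at 0.13 and 0.13.

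Over the 6 arrays, the Pearson correlations among the 10 genes were above 0 for 28 of 45 pairs. Their median was 0.54 and their range -0.83 to 0.96. Ier2 and Ier3 were then set apart with their values in view. Among the other 8 genes 27 of 28 pairs were above 0, with a median of 0.71 and a range of -0.20 to 0.96. That subset was picked from these values, and the share of such pairs over all genes was not counted. Fosb and Btg2 had the highest, 0.96. Ier3 correlated below 0 with each of the other 9 genes, between -0.83 and -0.26. Ier2 lay between -0.28 and 0.39, and its values rest on high replicate 2 as given above. These correlations describe 6 arrays that share 3 gates.

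Genes of the same pathways were read from lists by role, and changes are log2. Among 20 measured upstream regulators (MAP kinases, serum response factor with its partners, CREB), Braf, a kinase above MEK, rose in low against negative cells by 1.37 (limma adjusted p = 0.0419). Map2k2, which encodes MEK2, fell by 1.12 in high against negative cells (adjusted p = 0.0492). Elk4, a ternary complex factor, fell by 1.59 in high against low cells (adjusted p = 0.00854). The other 19 regulators were not called in each comparison, so each count rests on a single gene. Over all genes, 3.42% rose in low against negative cells, 3.35% fell in high against negative cells and 3.89% fell in high against low cells. The list's median was -0.22 for high minus negative, 0.22 for low minus negative and -0.36 for high minus low cells. Over all genes these medians were 0.10, -0.03 and 0.13. Serum response factor itself had 7.24 and 6.82 in high cells, 6.59 and 6.61 in low cells and 7.21 and 6.99 in negative cells.

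Of 12 AP-1 partners and close relatives, all above background on average, 0 rose in any comparison and 1, Batf2, fell against negative cells, by 1.43 in high cells (limma adjusted p = 0.0205) and by 1.46 in low cells (adjusted p = 0.0126). At an unadjusted limma p under 0.05, 1 of the 12 was higher and 1 lower in each of the 3 comparisons. Over all genes, 9.28% were higher and 12.9% lower in high against negative cells at that threshold. The shares were 9.16% and 9.31% in low against negative cells, and 10.5% and 12.0% in high against low cells. The list's median was 0.07 for high minus negative, -0.13 for low minus negative and 0.19 for high minus low cells.

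Of 40 other immediate early genes, 1 rose and 4 fell in high against negative cells, 4 rose and 2 fell in low against negative cells, and 2 rose and 4 fell in high against low cells. Over all genes, 1.36% rose and 3.35% fell in the first, 3.42% and 2.54% in the second, and 1.01% and 3.89% in the last of these comparisons. Rgs2, an inhibitor of G protein signalling, had 6.01 and 5.33 in high cells, 9.70 and 9.99 in low cells and 7.30 and 7.45 in negative cells. Its gates did not overlap: Rgs2 rose by 2.47 in low against negative cells (limma adjusted p = 0.00461), and fell by 1.70 in high against negative cells (0.0228) and by 4.18 in high against low cells (0.000711). Id2, an inhibitor of helix-loop-helix factors, had the same order of gates, with 5.23 and 4.55 in high cells, 8.91 and 8.85 in low cells and 6.73 and 7.25 in negative cells.

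Nr4a2, an orphan nuclear receptor, had 6.95 and 6.997 in high cells, 8.85 and 8.99 in low cells and 6.47 and 7.24 in negative cells, so that as for Egr2 both low arrays lay above the other 4. It rose by 2.07 in low against negative cells (limma adjusted p = 0.00903) and fell by 1.95 in high against low cells (0.0120). Phlda1 had 9.34 and 9.52 in high cells, 9.58 and 9.16 in low cells and 7.78 and 7.59 in negative cells, so that as for Btg2 both negative arrays lay below the other 4. It rose by 1.74 in high against negative cells (adjusted p = 0.0155) and by 1.68 in low against negative cells (0.00832).

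Hes1, a repressor downstream of Notch, fell by 2.06 in low against negative cells (limma adjusted p = 0.00803) and rose by 1.61 in high against low cells (0.0208). Myc fell by 1.70 in low against negative cells (0.0374). Id1 fell by 1.36 in high against negative cells (0.0241). Gadd45a, a stress sensor of growth arrest, fell by 1.40 in high against negative cells (0.0241) and by 2.15 in high against low cells (0.00394). Klf4, a factor of epithelial differentiation, rose by 1.13 in high against low cells (0.0463). The list's median was 0.01 for high minus negative, 0.19 for low minus negative and -0.24 for high minus low cells.

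Of 21 feedback inhibitors of the response, 4 rose and 0 fell in low against negative cells, 0 were called in high against negative cells and 0 rose and 3 fell in high against low cells. Over all genes, 3.42% rose and 2.54% fell in the first, 1.36% and 3.35% in the second, and 1.01% and 3.89% in the last of these comparisons. Dusp6, a phosphatase of ERK, had 6.15 and 5.80 in high cells, 7.50 and 8.02 in low cells and 6.43 and 6.11 in negative cells, with both low arrays above the other 4. It rose by 1.49 in low against negative cells (limma adjusted p = 0.0221) and fell by 1.79 in high against low cells (0.0129). Dusp10, a phosphatase of p38 and JNK, rose by 1.35 (0.0203) and fell by 1.11 (0.0448) in the same comparisons. Errfi1, an inhibitor of the EGF receptor, rose by 1.51 (0.0256) and Dusp2, a nuclear phosphatase of MAP kinases, by 1.03 (0.0460) in low against negative cells. Tob2, an antiproliferative relative of BTG2, fell by 1.09 in high against low cells (0.0201). In high against negative cells, 2 of the 21 were higher and 2 lower at an unadjusted limma p under 0.05, where 9.28% and 12.9% of all genes were.

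Lists of other early and stress responses were read in the same way. Over all genes, 3.42% rose and 2.54% fell in low against negative cells, and 1.36% and 3.35% in high against negative cells. In high against low cells these shares were 1.01% and 3.89%. They also apply to the lists of the next paragraph. Of 17 NF-kB early genes, Tnfaip3, an inhibitor of NF-kB signalling, rose by 1.11 in low against negative cells (limma adjusted p = 0.0250) and fell by 1.49 in high against low cells (0.00992), and the other 16 were not called in any comparison. Of 17 heat shock and chaperone genes, Hspa4l, a chaperone of the HSP110 family, rose by 1.76 (0.0203) and Hspd1, a mitochondrial chaperonin, fell by 1.002 (0.0302) in low against negative cells. In high against low cells Hspa4l fell by 2.31 (0.00846) and Dnajb1, an HSP40 co-chaperone, by 0.86 (0.0441). In high against negative cells 0 of the 17 were called, 0 were higher and 8 lower at an unadjusted limma p under 0.05 (9.28% and 12.9% of all genes), and the median was -0.47, against 0.10 over all genes.

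Of 16 genes of the ATF4 and ATF3 stress response, Nupr1, a stress-induced nuclear protein, had 11.85 and 11.84 in high cells, 9.81 and 10.43 in low cells and 7.53 and 6.18 in negative cells. Its gates did not overlap and kept the order that Jun had. Nupr1 rose by 4.99 in high against negative cells (limma adjusted p = 0.00620) and by 3.26 in low against negative cells (0.00931). Asns, which encodes asparagine synthetase, rose by 2.16 in high against negative cells (0.0359). The list's median was 0.56 for high minus negative, 0.33 for low minus negative and 0.10 for high minus low cells. Of 16 p53 targets, Aen, an exonuclease of apoptosis, rose by 1.06 in high against low cells (0.0241). The other p53 targets were not called in that comparison, and 0 of the 16 in the comparisons with negative cells, where 4 were higher and 2 lower at an unadjusted limma p under 0.05 in high cells and 3 higher and 2 lower in low cells. The shares of all genes were 9.28% and 12.9% in high cells, and 9.16% and 9.31% in low cells.

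Leaving out an array ended many of these calls. Of 9 calls in high against negative cells, 8 were lost when negative replicate 1 was left out and 8 when negative replicate 2 was, with Nupr1 kept both times. Leaving out high replicate 1 ended 0 of them, and leaving out high replicate 2 ended 2. Of 16 calls in low against negative cells, 8 were lost without low replicate 1, and 14 when low replicate 2 or either negative array was left out. Of 14 calls in high against low cells, leaving out low replicate 1 ended 9, low replicate 2 ended 10, high replicate 1 ended 2 and high replicate 2 ended 4, and Rgs2, Id2 and Gadd45a were kept without any 1 of these arrays. No change turned its sign.

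Other settings ended some of these calls too. Quantile normalization ended those of Id1, Gadd45a and Map2k2 in high against negative cells (adjusted p between 0.0762 and 0.0999), of Myc, Braf, Dusp2 and Hspd1 in low against negative cells (0.0518 to 0.0785), and of Dusp10 and Dnajb1 in high against low cells (0.111 and 0.102). A fit of the compared gates alone ended Map2k2 and Asns in high against negative cells (0.0907 and 0.0668), and Klf4, Tob2, Dusp10, Dnajb1 and Aen in high against low cells (0.0627 to 0.111). Array weights ended Map2k2 in high against negative cells (0.0556), and Hes1, Klf4, Dusp10 and Dnajb1 in high against low cells (0.0546 to 0.0776). A trended and robust prior ended Map2k2 (0.0725) in high against negative cells, and Klf4, Dusp10 and Dnajb1 (0.0621 to 0.1004) in high against low cells. Single calls were also lost for Dusp2 in low against negative cells (0.0511) and Klf4 in high against low cells (0.0578) with arrays centred on their medians, for Hspd1 with probe set means (0.0525), and for Dnajb1 among genes above background alone (0.0555). Rgs2, Id2, Nr4a2, Phlda1, Batf2, Elk4, Dusp6, Errfi1, Tnfaip3, Hspa4l and Nupr1 kept each of their calls under these settings.

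**Figure D4:**
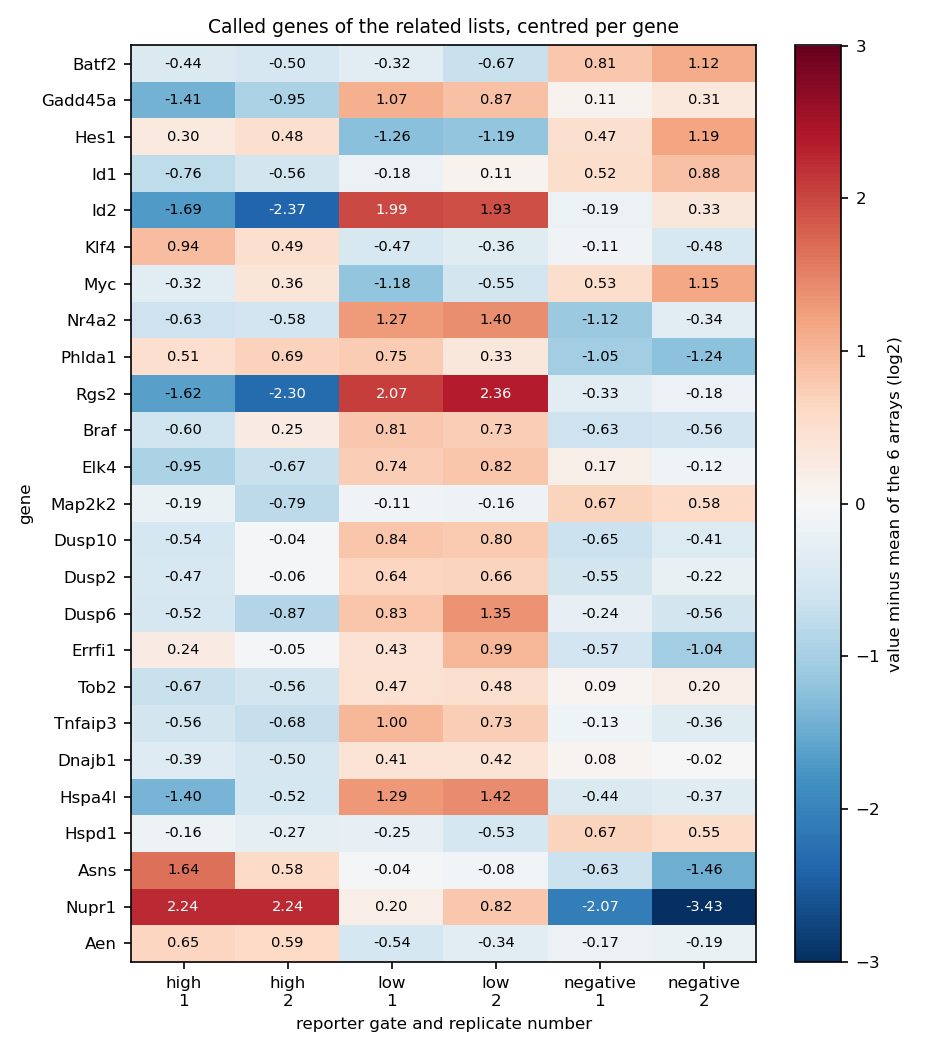
Value of each called gene of the related lists on each array minus its mean over the 6 arrays (log2), in the order of the lists, with the number printed in each cell and colour from blue (below the mean) to red (above it). Rgs2 and Id2 lie between 1.93 and 2.36 in the low gate and between -2.37 and -1.62 in the high gate, and Nupr1 lies at 2.24 on both high arrays and at -2.07 and -3.43 in the negative gate.

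Markers of other cell types moved with the gates, and their part in the results above was not tested. Of 11 enteroendocrine markers, 11 rose in low against negative cells and 11 fell in high against low cells. The summed level of these markers (log2) was 11.00 and 10.47 in high cells and 15.11 and 15.11 in low cells. In negative cells it was 9.47 and 8.90. Of 7 Paneth cell markers, 7 rose against negative cells in both reporter-positive gates, with a summed level of 15.49 and 15.20 in high cells, 14.91 and 14.99 in low cells and 12.74 and 12.40 in negative cells. Of the 10 immediate early genes, 5 (Fos, Fosb, Jun, Egr1 and Btg2) had both negative arrays below the other 4. How many of all genes had this pattern was not counted, and its relation to the markers was not tested. Shares of all genes were counted for each gate separately. Without overlap of the arrays, 23.0% lay higher in low and 32.9% higher in high than in negative cells. These are not the share with this pattern, and both rest on the same negative arrays.

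Lymphocyte markers were high in the low gate as well. Of 13 measured, 8 rose and 1 fell in low against negative cells, 0 rose and 9 fell in high against negative cells, and 0 rose and 9 fell in high against low cells. Their summed level was 10.52 and 10.38 in high cells, 13.83 and 13.82 in low cells and 12.16 and 12.39 in negative cells, and each of the 13 was above background on at least 1 array. The summed lymphocyte level was lower on both high arrays than on both negative arrays. The part of these markers in the change of any gene was not tested. Myeloid and mast cell markers summed to 10.48 and 10.42 in high cells, 11.92 and 12.08 in low cells and 10.50 and 10.62 in negative cells. Of these 16 markers, 5 rose (Kit, Fcer1g, Tyrobp, Itgax and Lyz2) and 2 fell (Mcpt1 and Mcpt2) in low against negative cells. The other 9 were not called in that comparison, among them Csf1r (0.48), Cd68 (0.04) and Itgam (-0.14). The list's median change there was 0.01. The highest values of the list on the low arrays were those of Tyrobp (10.62 and 10.45) and Fcer1g (10.21 and 10.62). In high against negative cells 1 rose and 4 fell, and in high against low cells 0 rose and 3 fell. Adgre1, S100a8, S100a9, Cpa3 and Fcer1a were never above background.

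Markers of other crypt and lamina propria cells differed as well. Of 8 enterocyte markers, 0 rose and 3 fell in high against negative cells (Lct, Slc5a1 and Sis), with no overlap of the arrays for all 8 and a median of -1.36, and 0 rose and 1 fell in low against negative cells (Lct). Their summed level was 12.89 and 12.23 in high cells, 13.56 and 12.63 in low cells and 13.99 and 13.49 in negative cells. Of 6 goblet cell markers, Clca1 fell by 1.39 in high against negative cells (limma adjusted p = 0.0281) and fell by 2.04 in low against negative cells (0.00606). The other 5 goblet cell markers were not called in these comparisons. Of 6 stem cell markers, Lgr5 rose by 1.21 in high against negative cells (0.0447) and by 1.70 in high against low cells (0.0134). The other 5 were not called in these comparisons. In high against negative cells 1 of the 6 was higher and 2 lower at an unadjusted limma p under 0.05. The list's median was -0.13 for high minus negative and 0.51 for high minus low cells. Of 5 plasma cell markers, Jchain was not above background on any of the 4 high and low arrays and had 6.93 and 7.04 in negative cells. Prdm1 rose in low against negative cells by 1.04 (0.0197) and fell by 1.61 in high against low cells (0.00447). Of 11 stroma and endothelium markers, Vim rose by 2.45 in low against negative cells (0.0350) and fell by 3.89 in high against low cells (0.00779). The other 10 were not called in these comparisons, and 5 of the 11 lay above background on average. The list's median was -0.05 for low minus negative and 0.25 for high minus low cells. Limma called 0 of 5 tuft cell markers, with an unadjusted p under 0.05 for 1 lower in high and 1 lower in low against negative cells. The part of these markers in the results was not tested either.

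**Figure D5:**
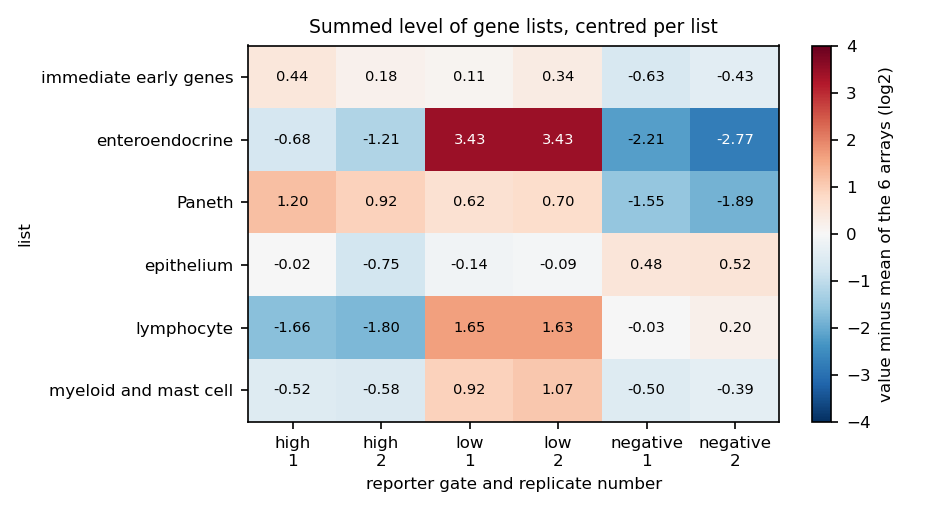
Summed level of the 10 immediate early genes and of 5 marker lists on each array minus the mean of the list over the 6 arrays (log2), with the number printed in each cell. The immediate early genes sum to 0.44 and 0.18 in high cells, 0.11 and 0.34 in low cells and -0.63 and -0.43 in negative cells. In the same gates the lymphocyte markers sum to -1.66 and -1.80, to 1.65 and 1.63, and to -0.03 and 0.20. The relation between the lists was not tested.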

How the data were processed

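RNA of 6 sorted pools was amplified with a whole-transcript kit, labelled with biotin and hybridised to 1-colour arrays, per the labels' protocols. Per the submitters' processing notes, the authors used RMA in Affymetrix Expression Console 1.3.0.187 for the deposited log2 values, with options not stated in the labels. RMA is known to compress very low and very high signals, and the number of arrays limits the precision. The columns of 12 samples hold no values and are not analysed here.

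Of 35556 probe sets, 21789 had a single symbol in the platform annotation, 1621 several, and 12146 were not listed. A RefSeq gene ID (GRCm38.p6) was matched for 21698 of the first kind, and 91 kept the array's symbol. The probe set with the highest mean stood for each of 999 genes with several, which left 19938 genes. Background came from 1203 receptor genes, and 12880 genes lay above it.

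Differences were tested with limma 3.58.1 (lmFit, eBayes) in R 4.3.3, two-sided, with 6 arrays in 1 fit of 3 gate means and 3 residual degrees of freedom, and Benjamini-Hochberg adjustment over all genes. A change was called at an adjusted p under 0.05, and intervals are at 95%. The fit was tested on simulated data. The 10 genes and all lists were chosen with earlier results of these data known. Named are the 10 genes, called genes of each related list up to 4 a comparison by p, and the 5 genes most like Egr1 and most like the mean of the 10. Id2 and Myc in low against negative, Gadd45a in high against negative and Hes1 and Klf4 in high against low cells fall outside this rule, as do Srf and the marker genes: these were chosen with their values in view. Maff and Fosl1 stand in 2 lists, as does Plk2. Alternatives were a trended and robust prior, a fit of 2 gates, a filter on dim genes, probe set means, 2 scalings, array weights, a threshold of 0.10, a replicate block and 1 array left out. Tables and plots used Python 3.11.15, pandas 2.3.3 and matplotlib 3.10.9.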

Additional observations from a re-analysis of the deposited data

Results flagged for a closer look

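Egr2 differed between the reporter-positive gates, by -1.40 ± 0.19 in high minus low cells (log2 change ± SE, limma adjusted p = 0.00956). It is listed here because the same contrast with negative cells gave -0.09 in high cells and 1.32 in low cells, and because the test of high against low cells is the test of that difference. Both high arrays lay below both low arrays. The call was lost without low replicate 1 (adjusted p = 0.0550) or low replicate 2 (0.0714). It was the only one of the 10 genes called between these gates.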

How the results depend on the processing

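With 2 arrays a gate, calls depended most on single arrays. Without 1 array of the gates compared, the 10 genes gave 0 to 3 calls in high against negative cells, 0 to 1 in low against negative and 0 to 2 in high against low, and all genes gave 13 to 1919, 187 to 565 and 381 to 1739. The lone array left in a gate is assumed to vary like the other gates. Leaving out an array of the gate not compared gives the fit of the compared gates alone. In high against negative cells that fit called 1 of the 10 and 561 genes, array weights 1 and 620, a trended and robust prior 1 of the 10, quantile normalization 5 and 621, and an adjusted p under 0.10 gave 5 and 1817. In low against negative cells a trended and robust prior, genes above background alone, arrays centred on their medians and the replicate block each called 3 of the 10, array weights called 2150 genes and a threshold of 0.10 gave 1914. In high against low cells the fit of the compared gates alone called 499 genes, array weights 607 and a threshold of 0.10 1771. Quantile normalization changed the split of calls to 324 higher and 297 lower (272 and 667 with the deposited scaling) in high against negative, and to 326 and 616 (202 and 776) in high against low cells. Signs turned for changes that were not called. With quantile normalization these were Egr2 at 0.127 in high minus negative, and Egr1 at 0.127, Fos at 0.0940 and Fosb at 0.0811 in high minus low, and with arrays centred on their medians Ier2 at -0.0030 in low minus negative. Without 1 array, Ier2 ranged from -1.11 to 0.185 in high minus negative, from -0.0792 to 0.231 in low minus negative and from -1.19 to 0.109 in high minus low, where Fosb ranged from -0.336 to 0.0209 and Btg2 from -0.0922 to 0.167. Same-numbered arrays correlated in their deviations at 0.079 (high and low), 0.102 (high and negative) and 0.103 (low and negative), and the labels do not say that a number marks shared animals, so the numbers were not taken as pairs and whether animals were shared is not known. With the replicate number as a block, the calls of Egr1 (adjusted p = 0.0653) and Ier3 (0.0506) in low against negative cells were lost and no other call of the 10 genes changed, and of the related genes Dnajb1 in high against low cells was lost (0.0600). All 10 genes lay above background on every array, so the background level limits none of their values. The causes were not tested.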

Other observations

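Among genes above background outside the 10, those with the highest Pearson correlation with Egr1 over the 6 arrays were Atf5 (0.993), Lyz2 (0.992), Malat1 (0.985), Chst10 (0.983) and Ica1 (0.981). Malat1, a nuclear long non-coding RNA, had 11.72 and 11.49 in high cells, 11.74 and 11.72 in low cells and 10.84 and 10.58 in negative cells (log2), and both negative arrays lay below the other 4. Lyz2, the lysozyme of macrophages that also stands in the myeloid list, had 8.98 and 8.63 in high cells, 8.74 and 9.39 in low cells and 7.75 and 7.23 in negative cells. Atf5, a relative of ATF4, spanned only 6.57 to 6.61 in high and low cells and 6.48 to 6.51 in negative cells.

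The genes most like the mean of the 10, each centred on its own mean, were Tceal8 (0.991), Airn (0.987), Ghr (0.986), Ogfod2 (0.986) and Gnat2 (0.984). Ghr, the growth hormone receptor, had 6.46 and 5.79 in high cells, 6.59 and 6.87 in low cells and 4.22 and 4.43 in negative cells. Correlations over 6 arrays that share 3 gates describe an order of gates, and many of the 12880 genes above background can share it.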
